A study of Capra hircus with 3 samples.

Results

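Collagens and the other proteins of the dermal matrix were followed in the skin of Cashmere goats. The members are the probes of the array whose description holds collagen, laminin, fibronectin, tenascin, decorin, biglycan, lumican, versican, fibrillin, fibulin, tropoelastin, SPARC, osteonectin, matrix metalloproteinase or metalloproteinase inhibitor, and not surfactant, integrin or receptor. This gave 38 of the 15008 probes that are not controls, and 2 further probes were left out by the last condition. The 38 probes stand for 30 sheep identifiers, 7 of which have more than 1 probe, so the members are not independent of each other. Versican, fibrillin, tropoelastin, SPARC and osteonectin were searched for and had 0 probes by description.

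The skin came from the flank of 6 adult female Arbas Cashmere goats, 2 years old, and was measured on 3 sheep arrays with 2 dyes. The 3 goats of the short photoperiod were outdoors for 7 hours a day and otherwise kept in a dark shed of about 0.1 lux, and the 3 goats of the natural photoperiod grazed under natural conditions. Each array held 1 goat of each group, with the short photoperiod in Cy5 and the natural photoperiod in Cy3 on every array. The paper's discussion says that compared goats had the same parent, while its methods say only that the goats were divided at random. The value of a probe on an array is its log2 ratio of the short over the natural photoperiod after background correction and loess normalization, so a value below 0 means less signal under the short photoperiod. The arrays are called replicates 1, 2 and 3. The dyes were not swapped, and the dye bias of a probe and a difference between the groups cannot be told apart. The probes are of sheep sequence and the RNA is from goat. The skin was measured whole, so fewer cells of a type and less RNA per cell cannot be told apart.

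The dermal matrix is made mainly by fibroblasts. Fibrillar collagens of types I and III form its load-bearing fibres, proteoglycans and glycoproteins bind and space these fibres, and a basement membrane of type IV collagen and laminins underlies the epidermis and surrounds each hair follicle. Metalloproteinases cut these proteins and their tissue inhibitors hold them in check, and the matrix around the follicle is known to be remodelled over the hair cycle.

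Tenascin-C had the largest mean difference among the members, with a log2 ratio of -2.10 ± 1.15 (SD, n = 3). A COL6A3 probe had -0.80 ± 0.21, a COL3A1 probe -0.72 ± 0.50 and fibronectin -0.41 ± 0.02, while biglycan had 0.36 ± 0.24 and the metalloproteinase inhibitor TIMP3 0.32 ± 0.12. None of these was called. With limma's test against a ratio of 0, adjusted over all 14977 tested probes, 0 of the 38 members had an adjusted p under 0.05, beside 1 of all probes (0.00668%). At an unadjusted p under 0.05 there were 7 members with a mean below 0, beside 9.35% of all probes, and 3 with a mean above 0, beside 9.11%. A mean change of 2-fold was passed by 1 member on the lower side, where 0.414% of all probes passed, and by 0 on the higher side, where 0.427% did. When both channels were fitted as samples with an estimated correlation inside each spot, 1 of 37 members was called, beside 1.1% of all probes in that fit, and 0 were when they were fitted as unpaired samples. With each array centred on its median in place of loess, 4 members were called, beside 12.6% of all probes, and the COL6A3 mean was -0.04.

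The means of 27 of the 38 members (71.1%) were below 0 after loess, beside 51.1% of all tested probes. After median centring 21 of the 38 were, and the share of all probes below 0 in that setting was not counted. The median over the members was -0.16, beside -0.01 over all tested probes, and after median centring it was -0.04, beside 0.00. On replicates 1, 2 and 3 the median over the members was -0.48, -0.04 and 0.03, so the shift lay mainly on replicate 1, where 30 members were below 0. Of the members, 10 were below 0 on all 3 arrays, beside 21.9% of all probes, and 4 were above 0 on all 3, beside 21.5%. The count below 0 on every array is thus near the background. After loess, that at an unadjusted p under 0.05 with a mean below 0 is above it. The probes are not independent, and the difference was not tested. With means of both signs together, 10 of 38 members were at this p, beside 2765 of 14977 probes. The count depended on the setting. Without replicate 2 it was 2 of 37 beside 1605 of 14898, and without replicate 3 it was 13 of 38 beside 2067 of 14926. From the ratios of Feature Extraction it was 7 of 38 beside 2548 of 14593, and after median centring 13 of 38 beside 5123 of 14977. In these last settings the share of the members was near that of all probes, and without replicate 2 it was below it.

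**Figure D1:**
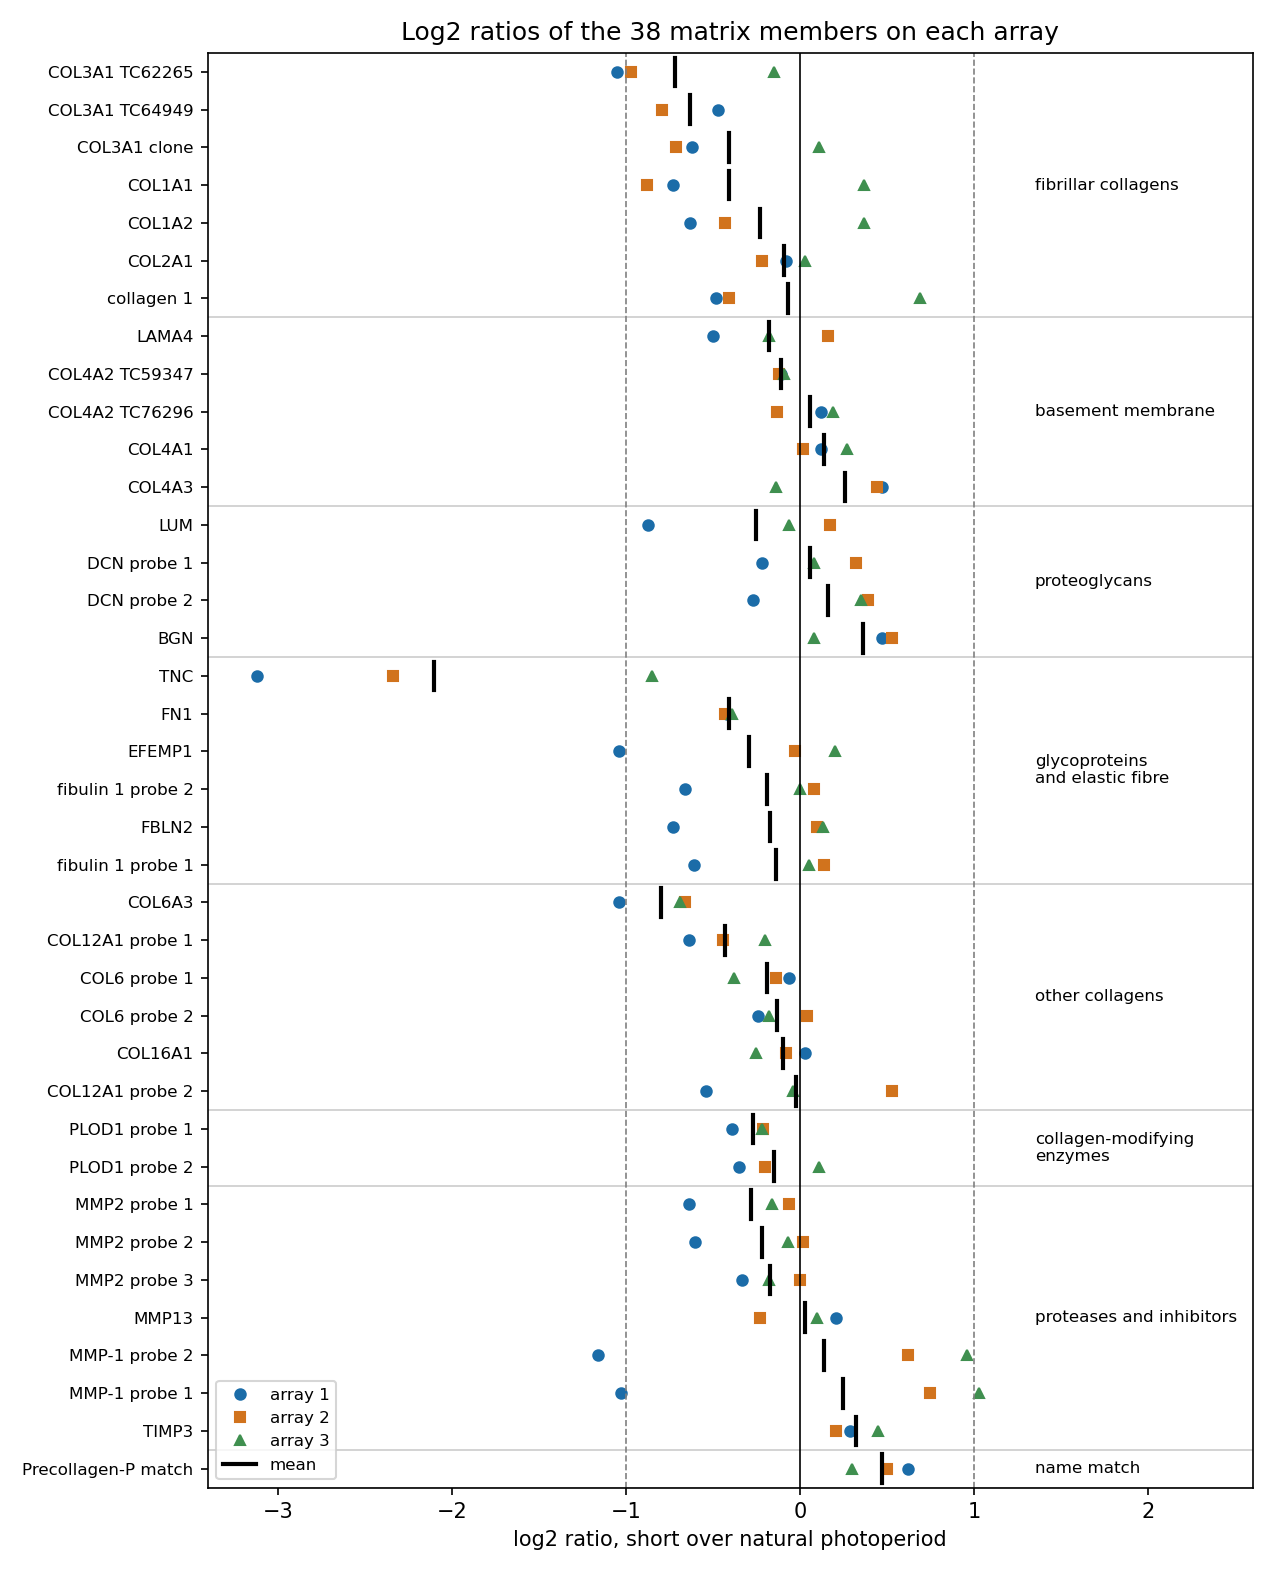
Log2 ratio of the short over the natural photoperiod for each of the 38 members, grouped by family, with 1 symbol per array and a black bar at the mean; dashed lines mark a 2-fold change. TNC lies farthest from 0, and the fibrillar collagens lie below 0 on replicates 1 and 2 but mostly above 0 on replicate 3.

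The fibrillar collagens were represented by 7 probes, all with a mean below 0 after loess, of which COL3A1 TC64949, COL1A2 and collagen 1 were above 0 after median centring. Their median was -0.41, and it was -0.62, -0.71 and 0.24 on replicates 1, 2 and 3. Replicates 1 and 2 thus had the opposite sign to replicate 3, and the SD of the array medians, 0.53, was larger than the median itself. All 7 were below 0 on replicates 1 and 2, and 1 of the 6 with a value was below 0 on replicate 3.

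COL3A1 encodes the chain of type III collagen, which forms thin fibres beside type I collagen in skin. On replicates 1, 2 and 3 the COL3A1 probe of TC62265 gave -1.05, -0.97 and -0.15. It had the lowest mean of the fibrillar probes and was the 1 probe among the 6 measured on all 3 arrays that was below 0 on each. Its mean was -0.72 ± 0.50 (SD, n = 3), a fold of 0.606, and limma's adjusted p was 0.201. Its mean stayed below 0 with any 1 array left out, between -1.01 and -0.56.

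A second COL3A1 probe, of TC64949, had -0.47 and -0.79 on replicates 1 and 2, and its spot on replicate 3 carried an outlier flag and was left out. Both measured arrays were below 0, with a mean of -0.63 ± 0.23 (SD, n = 2) and an adjusted p of 0.198, but median centring gave 0.16. With the outlier spot kept the mean was -0.46, and in the authors' table, which holds that spot, it was -0.41. The third COL3A1 probe, of a sheep clone (DQ239680), had -0.62, -0.71 and 0.11. Its mean was -0.41 ± 0.45, within its spread, since replicate 3 had the other sign. A further COL3A1 record named only by its gene symbol (GT879046), outside the description rule, had means of -0.60 and -0.62 on its pair of probes, with a value below 0 on every array.

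COL1A1 and COL1A2 encode the chains of type I collagen, the main protein of the dermis. COL1A1 (AF129287) had -0.73, -0.88 and 0.37. COL1A2 (TC59972) had -0.63, -0.43 and 0.37. For both, replicates 1 and 2 were below 0 and replicate 3 above it, and their means, -0.41 ± 0.68 and -0.23 ± 0.53, were smaller than their spread. A probe the array calls collagen 1, with no chain (FJ200442), had -0.48, -0.41 and 0.69 and a mean of -0.07 ± 0.66. COL2A1 (TC71485), the collagen of cartilage, had -0.08, -0.22 and 0.03, with a mean of -0.09 ± 0.13.

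The triple helix of a collagen needs a glycine every 3 residues, and glycine is coded by GGN. Of the 17 members that name a collagen, with or without its chain, 4 carried a GGN codon every 3 codons through their whole probe, and 24 of the 15008 probe sequences (0.16%) did. They are shown because the fibrillar probe with the lowest mean is among them and because a collagen chain carries this repeat. The capitals mark the glycine codons, 5′ to 3′, as printed on the array.
COL3A1 TC62265: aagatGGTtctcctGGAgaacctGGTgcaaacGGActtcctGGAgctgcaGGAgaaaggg
COL3A1 clone: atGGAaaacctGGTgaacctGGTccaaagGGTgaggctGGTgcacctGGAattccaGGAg
COL2A1: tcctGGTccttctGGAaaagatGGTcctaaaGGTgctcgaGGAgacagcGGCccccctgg
COL4A1: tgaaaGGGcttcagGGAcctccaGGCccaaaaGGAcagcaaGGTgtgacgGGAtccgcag
The first of these holds 6 glycine codons and the COL3A1 clone holds 7. Their mean log2 ratios differed, from -0.72 for COL3A1 TC62265 to 0.14 for COL4A1, although all 4 share the repeat. How far probes of this repeat bind the RNA of other collagens was not tested.

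The basement membrane probes were 5, with 2 means below 0 and 3 above. Their median was 0.06, with 0.12, 0.02 and -0.09 on replicates 1, 2 and 3. No array stood apart, and the SD of the array medians was 0.11. COL4A1 (TC77083), which forms the network of the basement membrane together with COL4A2, had 0.12, 0.02 and 0.27. Its mean was 0.14 ± 0.12 (SD, n = 3), with an adjusted p of 0.518.

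COL4A2 was measured by probes of 2 records. The probe of TC76296 had 0.12, -0.13 and 0.19, with a mean of 0.06 ± 0.17. That of TC59347 had -0.11, -0.12 and -0.09, the narrowest spread of the family, with a mean of -0.11 ± 0.02 and an adjusted p of 0.563. The records thus did not share a sign, and neither was far from 0 after loess. With median centring TC76296 had 0.11 and TC59347 -0.30. COL4A3 (L47282), a chain of specialised basement membranes, had 0.47, 0.44 and -0.14, and its mean of 0.26 ± 0.34 was within its spread and was 0.00 after median centring. LAMA4 (TC60437), a laminin chain of vessel walls, had -0.50, 0.16 and -0.18, with a mean of -0.18 ± 0.33.

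The proteoglycans were measured by 4 probes, of which 1, lumican, had a mean below 0 after loess and 0 did after median centring. Their median was 0.11, with -0.25, 0.36 and 0.08 on replicates 1, 2 and 3. It was -0.02 without replicate 2 and 0.63 after median centring. Replicate 1 had the other sign. Biglycan (BGN), a small proteoglycan that binds collagen, had 0.47, 0.53 and 0.08. It was above 0 on all 3 arrays, with a mean of 0.36 ± 0.24 (SD, n = 3), a fold of 1.28, and an adjusted p of 0.247.

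Decorin (DCN), which coats collagen fibres and sets their width, was measured by a pair of probes. The first had -0.22, 0.32 and 0.08 and the second -0.27, 0.39 and 0.35. Both were below 0 on replicate 1 and above it on the other arrays. Their means of 0.06 ± 0.27 and 0.16 ± 0.37 were within their spread after loess. After median centring the means were 0.93 and 0.98, and both probes were called. Lumican (LUM, TC55910), which also binds fibrillar collagen, had -0.87, 0.17 and -0.06. Its mean of -0.25 ± 0.55 rested on replicate 1 and was 0.06 without it.

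Between the 4 main families, the largest difference of medians after loess was between the fibrillar collagens and the proteoglycans, with -0.38, -1.07 and 0.16 on replicates 1, 2 and 3. The mean of these differences was -0.43 ± 0.62 (SD, n = 3). The fibrillar collagens minus the basement membrane gave -0.75, -0.74 and 0.33, with a mean of -0.38 ± 0.62, or -0.21 after median centring. Both differences changed sign on replicate 3 and were smaller than their spread. Against the proteases and inhibitors, the fibrillar collagens differed by -0.21 ± 0.46, or 0.01 after median centring. The proteoglycans minus the proteases and inhibitors gave 0.22 ± 0.21, with 0.35, 0.34 and -0.02. None of the 6 differences between these families was tested, and the basement membrane differed by -0.05 ± 0.37 from the proteoglycans and by 0.18 ± 0.48 from the proteases and inhibitors. After median centring the order was another, with 0.89 for the proteoglycans minus the proteases and inhibitors, -0.88 for the fibrillar collagens minus the proteoglycans and -0.67 for the basement membrane minus the proteoglycans.

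**Figure D2:**
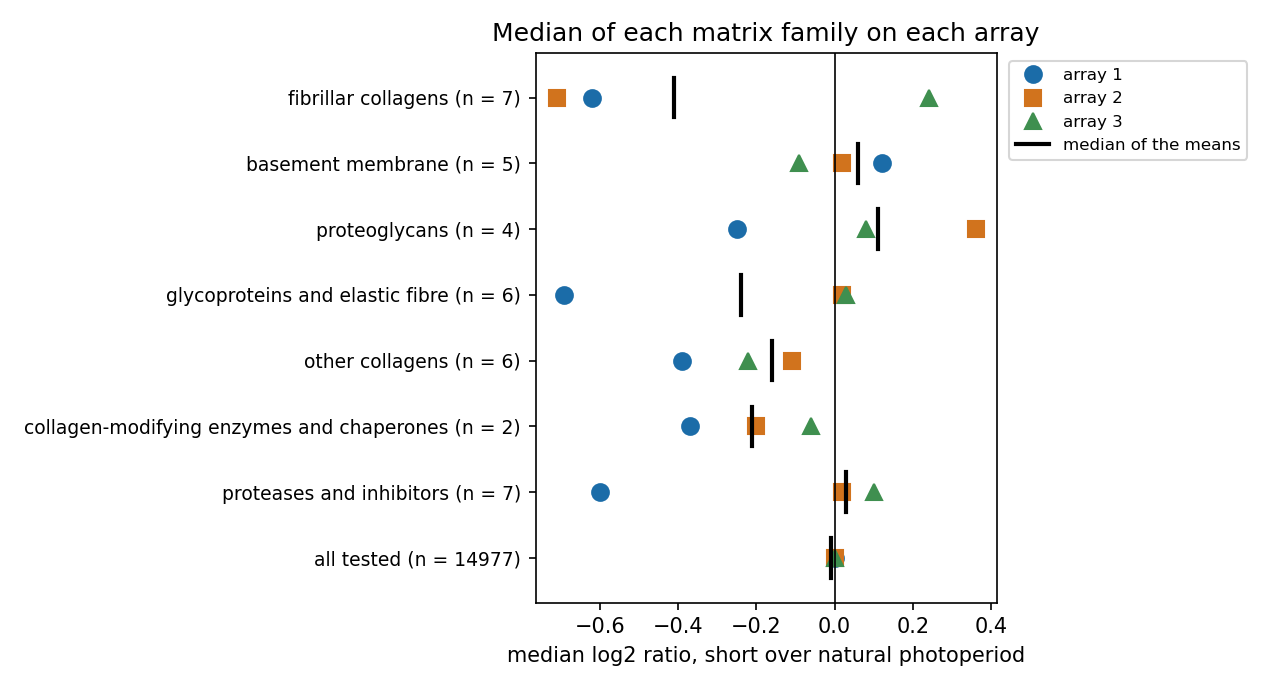
Median log2 ratio of the short over the natural photoperiod in each matrix family and over all tested probes, with 1 symbol per array and a black bar at the median of the means. The array medians of the fibrillar collagens run from -0.71 to 0.24, and those of the basement membrane from -0.09 to 0.12.

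The glycoproteins and elastic fibre proteins were measured by 6 probes, all with a mean below 0 after loess, of which EFEMP1 and FBLN2 were above 0 after median centring. Tenascin-C (TNC, TC66598) is a glycoprotein of remodelling connective tissue. Its log2 ratios were -3.12, -2.34 and -0.85 on replicates 1, 2 and 3. All 3 arrays were below 0, and the size differed widely between the arrays. Its mean was -2.10 ± 1.15 (SD, n = 3), a fold of 0.233, the 5th lowest of all tested probes. Its adjusted p was 0.162, and without any 1 array its mean was between -2.73 and -1.60.

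With the average intensities of the arrays made equal in distribution (Aquantile), the log2 level of TNC was 9.73, 9.81 and 9.76 in the short photoperiod goats of replicates 1, 2 and 3. In the natural photoperiod goats it was 12.84, 12.15 and 10.62. The groups did not overlap, and the goats of the natural photoperiod were farther apart than those of the short photoperiod. Other members also had no overlap, such as COL3A1 TC62265 (highest short 11.34, lowest natural 11.36) and the first PLOD1 probe (13.69 and 13.86). The share of all probes without overlap was not counted. Over the alternatives the adjusted p of TNC lay between 0.0365 (median centring) and 0.452.

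Fibronectin (FN1, TC62989), a glycoprotein that links cells to collagen, had -0.42, -0.43 and -0.39. The 3 arrays were nearly equal. The probe is dim, with a mean log2 intensity of 7.69, though well above background on all 3 arrays. Its mean was -0.41 ± 0.02 (SD, n = 3), a fold of 0.751. The mean log2 ratio was -0.60 without the normexp offset, -0.61 from the processed signals of Feature Extraction and -0.77 after median centring. It had an adjusted p of 0.167 and a range of 0.0344 (median centring) to 0.587 over the alternatives. A type VI collagen probe of similar intensity, 7.58, also moved down under median centring, from -0.13 to -0.49. The log2 level of FN1 was between 7.39 and 7.60 in the short photoperiod goats and between 7.83 and 8.01 in the natural photoperiod goats. These levels did not overlap, again without a count of all probes beside it.

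The fibulins, which bind elastic fibres and basement membranes, shared a pattern. The 2 fibulin 1 probes (DQ239679) had -0.61, 0.14 and 0.05, and -0.66, 0.08 and 0.00. FBLN2 (TC71385) had -0.73, 0.10 and 0.13. EFEMP1 (TC66974), a fibulin-like protein, had -1.04, -0.03 and 0.20. For all 4 probes replicate 1 was far below 0 and the other arrays were close to it, and without replicate 1 their means were between 0.04 and 0.11.

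The other collagens were measured by 6 probes, all with a mean below 0 after loess and with a median of -0.16, while both COL12A1 probes were above 0 after median centring. Type VI collagen forms beaded filaments around cells. COL6A3 (TC57970) had -1.04, -0.66 and -0.69. All 3 arrays were below 0 by more than the spread between them. Its mean was -0.80 ± 0.21 (SD, n = 3), a fold of 0.576, with an adjusted p of 0.155. Over the alternatives this p lay between 0.0375 (both channels with an estimated correlation) and 0.882 (median centring, where the mean was -0.04).

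The log2 level of COL6A3 was 15.05, 15.30 and 15.49 in the short photoperiod goats and 16.09, 15.96 and 16.18 in the natural photoperiod goats. The groups did not overlap, here too without a count of all probes beside it. A type VI collagen record with a pair of probes (AF129288), which the array describes as the alpha 3 chain but names COL6A1, did not have a difference of this size after loess. Its first probe had -0.06, -0.14 and -0.38, with a mean of -0.19 ± 0.17, and its second, well above background in Cy5 on 2 of the 3 arrays, had -0.24, 0.04 and -0.18, with a mean of -0.13 ± 0.15. After median centring they had -0.35 and -0.49, farther from 0 than COL6A3. Which chain this record stands for is not settled by the array.

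COL12A1 (TC57805) encodes a collagen that lies on the surface of fibrils, and its pair of probes disagreed after loess. The first had -0.64, -0.44 and -0.20, below 0 on all 3 arrays, with a mean of -0.43 ± 0.22 and an adjusted p of 0.208, and 0.07 after median centring. The second had -0.54, 0.53 and -0.04, with a mean of -0.02 ± 0.53, and 0.02 after median centring, close to the first. After loess the means of the pair differed by 0.41, while those of the other 6 identifiers with several probes differed by 0.05 to 0.13. COL16A1 (TC72836), a minor collagen associated with fibrils, had 0.03, -0.08 and -0.25 and a mean of -0.10 ± 0.14, or -0.23 after median centring.

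PLOD1 encodes an enzyme that hydroxylates lysine in collagen, which is needed for its cross-links. Its first probe (TC80679) had -0.39, -0.21 and -0.22, below 0 on all 3 arrays. The mean was -0.27 ± 0.10 (SD, n = 3), with an adjusted p of 0.256. The second probe of this record had -0.35, -0.20 and 0.11 and a mean of -0.15 ± 0.23, within its spread. After median centring the order of the pair was the other way, with -0.10 and -0.37.

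The proteases and inhibitors were measured by 7 probes, 3 with a mean below 0 and 4 above after loess. Their median was 0.03, or 0.11 with 1 value per identifier, but -0.23 after median centring and between -0.16 and -0.03 with an array left out. On replicates 1, 2 and 3 it was -0.60, 0.02 and 0.10, so replicate 1 stood apart. MMP-1 (AF267156), the collagenase that cuts fibrillar collagens, had the widest spread among the arrays in this family. Its first probe had -1.03, 0.75 and 1.03 and its second -1.16, 0.62 and 0.96. Both probes were 2-fold lower on replicate 1 and higher on the other arrays, and their means of 0.25 ± 1.12 and 0.14 ± 1.14 were smaller than their spread.

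MMP2, a gelatinase that cuts denatured collagen and type IV collagen, was measured by 3 probes of NM_001166180, which had means of -0.28 ± 0.31, -0.22 ± 0.33 and -0.17 ± 0.16. On replicate 1 they had -0.64, -0.60 and -0.33, and on the other arrays they lay between -0.18 and 0.02. A further MMP2 record (TC74784), outside the description rule, had -0.44, -0.16 and -0.37, with a mean of -0.32 ± 0.15 and 0.24 after median centring. MMP13, another collagenase, had 0.21, -0.23 and 0.10, with a mean of 0.03 ± 0.23 that was -0.23 after median centring.

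TIMP3, an inhibitor of metalloproteinases that is bound to the matrix, had 0.29, 0.21 and 0.45 on its TC59084 probe. All 3 arrays were above 0. Its mean was 0.32 ± 0.12 (SD, n = 3), a fold of 1.25, with an adjusted p of 0.228. A TIMP3 probe of another record (NM_001166187), outside the description rule, had 0.41, 0.06 and -0.26 and a mean of 0.07 ± 0.34, so after loess the records did not share this pattern, while after median centring they had 0.52 and 0.51. The member left outside the families is a sheep record (TC70064) that the array matches in a small part to a mussel precollagen, and it names no goat matrix protein. It had 0.62, 0.50 and 0.30, the highest mean among the members at 0.47 ± 0.16, with an adjusted p of 0.173.

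Matrix genes that the array names only by symbol or in other words were looked up outside the rule, and gave 18 probes of 11 names. Of their means, 10 were below 0 and 8 above, with a median of -0.05, and 0 had an adjusted p under 0.05 after loess. MMP9, a gelatinase carried by leukocytes among other cells, had -0.50, -0.29 and -0.52, with a mean of -0.44 ± 0.13 and an adjusted p of 0.182. After median centring it had -0.71, and its adjusted p ranged from 0.0352 there to 0.658. The TIMP1 probes had means of 0.07 and 0.04 after loess and 0.83 and 0.79 after median centring. Their adjusted p-values ranged from 0.0365 and 0.0375, under median centring, to 0.992 and 0.994. The 3 MMP14 probes had 0.17, -0.07 and -0.25, and 0.00, -0.25 and -0.41 after median centring.

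Of 48 genes listed as partners of the matrix, such as other matrix proteins, integrins and growth factors, 10 were found, with 13 probes. Of these, 8 had a mean below 0 and 5 above, with a median of -0.08, and 0 were called. Periostin (POSTN, TC53456), a matrix protein that binds tenascin-C and type I collagen, had the lowest values. Its first probe had -0.43, -0.98 and -1.45, with a mean of -0.95 ± 0.51 and an adjusted p of 0.163, and its second had -0.06, -0.77 and -1.51, with a mean of -0.78 ± 0.72. Both are among the brightest 10% of probes, and after median centring their means were -0.48 and 0.24. Replicate 3 was the lowest for periostin, while it was the highest for TNC and the type I collagen probes. CTGF had a mean of -0.25 ± 0.54, which was -0.05 after median centring and between -0.51 and 0.02 with an array left out. The highest partners were DDR1, a collagen-binding kinase, at 0.21 ± 0.22, TGFB2 at 0.14 ± 0.24 and a TGFB3 probe at 0.03 ± 0.10. After median centring these 3 had 0.26, 0.32 and -0.18.

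The markers of the cells in the skin were compared in the same way. For fibroblasts 1 of 6 listed genes was found, VIM, whose pair of probes had -0.31 and -0.02, and -0.44 and -0.02, on replicates 1 and 2 and outlier flags on replicate 3. For smooth muscle, 1 of 5 genes was found, CNN1, which had 0.06, 0.08 and -0.72. The median of VIM was -0.20 after loess and 0.74 after median centring, and CNN1 had means of -0.19 and 0.38. No listed gene of endothelium or skeletal muscle was found, so those cells could not be followed. The 13 leukocyte probes, of 7 of 13 genes, had medians of -0.42, -0.20 and -0.54 on replicates 1, 2 and 3, and 12 of them had a mean below 0. The CD4 probes among them were not well above background on every array. The lowest was FCGR1A, a receptor of antibodies on macrophages, with -1.57, -0.22 and -1.49. For adipocytes the 6 probes of 3 of 6 genes had medians of 0.06, -0.19 and -0.70, and 4 of them had a mean below 0. The median of their means was -0.37, or -0.59 after median centring.

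The 30 probes whose description holds keratin, mostly those of hair, had medians of 0.54, 0.36 and 1.07, and 24 of them had a mean above 0. The median of their means was 0.62 after loess and 1.27 after median centring. The basal keratinocyte marker KRT14, which is 1 of them and the 1 tested gene of 7 in the keratinocyte list, had 1.25, 0.64 and 0.16, with a mean of 0.68 that was 1.55 after median centring. Of the 4 genes of cartilage and bone, BGLAP had 0.52, 0.85 and 0.34 and the ACAN probes were not well above background on every array. The leukocyte and keratin medians thus kept their sign on all 3 arrays, and the fibrillar collagens did not. The part of cell composition in the values of the matrix members was not tested.

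The ratio of bright probes depended on the normalization. The brightest 10% of all tested probes, 1498 probes and a set chosen after the values were seen, had a median log2 ratio of -0.02 after loess and 0.55 when each array was centred on its median instead, while the median of all probes was -0.01 and 0.00. Of the members, 7 are in this set. Their median was -0.29 after loess and 0.29 after median centring. COL6A3 went from -0.80 to -0.04, the DCN probes from 0.06 and 0.16 to 0.93 and 0.98, and collagen 1 from -0.07 to 0.76.

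TNC, at -2.10 after loess and -2.20 after median centring, and COL3A1 TC62265, at -0.72 and -0.78, are outside this set and moved less. The median of the fibrillar collagens was -0.31 after median centring, that of the glycoproteins -0.07 and that of the basement membrane 0.00. Members outside the set moved as well, such as COL2A1 from -0.09 to -0.31, COL4A2 TC59347 from -0.11 to -0.30 and LAMA4 from -0.18 to -0.04. COL4A1 went from 0.14 to 0.07, COL4A2 TC76296 from 0.06 to 0.11 and the MMP2 probe with the mean of -0.17 to -0.31. The fibulin 1 probes went from -0.14 and -0.19 to -0.06 and -0.07, and the MMP-1 probes from 0.25 and 0.14 to 0.16 and 0.08. The 4 members called with that setting were TNC, FN1 and both DCN probes. Over all alternatives the adjusted p of the DCN probes lay between 0.0348 and 0.992 and between 0.0365 and 0.963.

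**Figure D3:**
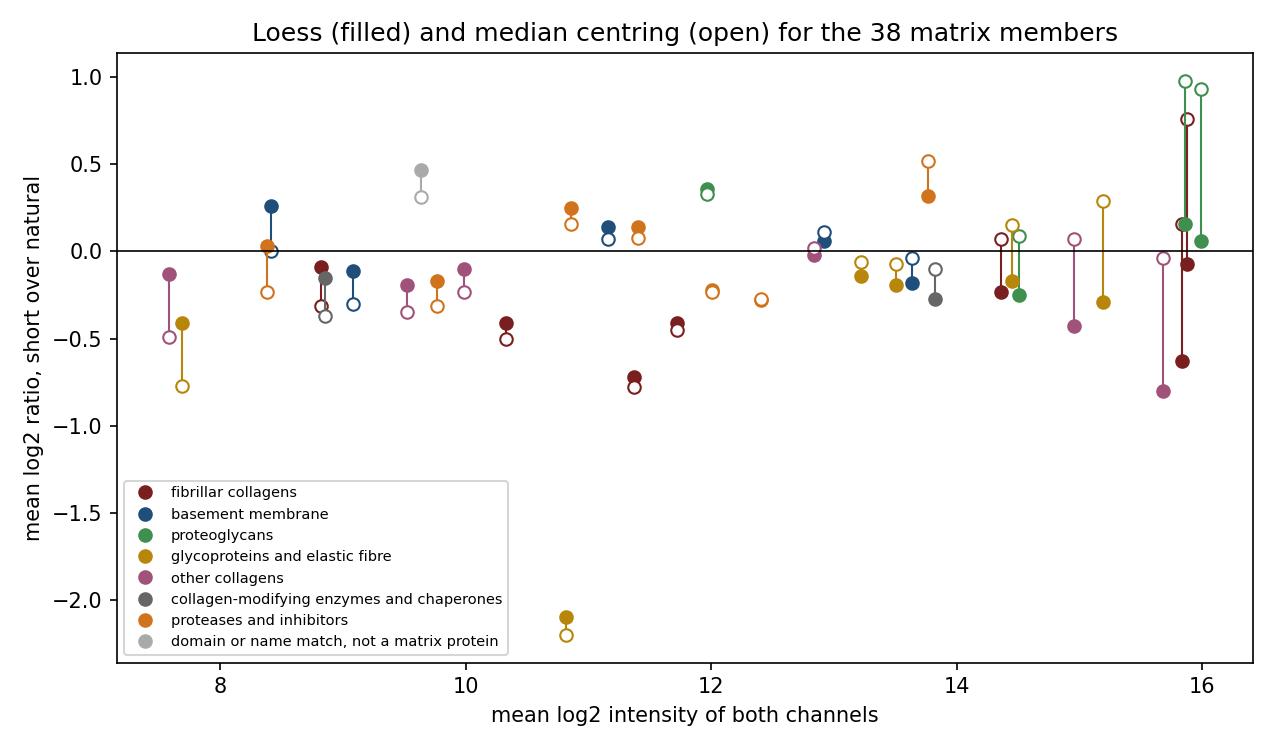
Mean log2 ratio of the short over the natural photoperiod for each of the 38 members against its mean log2 intensity over both channels, after loess (filled) and after centring each array on its median (open), joined by a line and coloured by family. The brightest members moved upwards, such as COL6A3 from -0.80 to -0.04, and TNC moved from -2.10 to -2.20.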

How the data were processed

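The authors extracted the arrays with Feature Extraction 10.7.3.1, and the deposited scanner files give, for both dyes, the mean intensity of a spot and the median intensity around it, not normalized. A processed intensity, background-subtracted and lowess-normalized, and its log10 ratio were deposited beside them. The authors' value table gives log2 ratios of the same processed signals, Cy5 over Cy3, with surrogates for dim spots.

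Ratios were computed in R 4.3.3 with limma 3.58.1. Normexp (offset 50) was run on all spots, and loess within each array without control spots and spots with an outlier flag. Spots of 1 probe were averaged. Probes with at least 2 arrays were tested with lmFit and eBayes against 0, and p-values were adjusted by Benjamini-Hochberg over all 14977 of them (threshold 0.05). The test is paired by array, since each ratio compares the goats of an array, which share a parent per the paper's discussion. The channels had an estimated correlation of 0.619 within spots, which does not show that the goats are related. The fold rule of the methods was applied to the mean.

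The test was checked on simulated ratios. The changes put into them were larger than the mean of any member, so the check does not cover changes of the size seen here. Families were set from the descriptions, and the members and lists were chosen with earlier results of these data known. Named in the text are the 3 highest and 3 lowest members of each family, those past 2-fold, a list of common matrix genes with all their probes, and the 3 highest and 3 lowest partners, which here gives every member. The matrix genes outside the description rule were looked up by name, and those named are on that list of common genes. FCGR1A, BGLAP and CNN1 stand for their marker lists. Genes are named as on the array. Family medians carry no test. The arrays lay on 1 slide, and their number limits the precision of every value. The alternatives were normexp without an offset, no background correction, median centring, Feature Extraction's ratios, the authors' table, keeping outlier spots, only probes well above background, eBayes with trend and robust, separate channels, 1 value per identifier, and leaving out each array. Figures were drawn with matplotlib 3.10.9.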

Additional observations from a re-analysis of the deposited data

How the results depend on the processing

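Of the 38 members, 24 kept the sign of their mean under every alternative that gave a value, where a value that rounded to 0.00 was not counted as turned. Among these 24 are COL4A3, at 0.00 under median centring, and COL4A2 TC76296, at 0.00 without replicate 3. Before rounding both of these values lay below 0. By this count median centring turned the sign of 9. These became 0.16 for COL3A1 TC64949, 0.07 for COL1A2, 0.76 for collagen 1, 0.09 for LUM, 0.29 for EFEMP1, 0.15 for FBLN2, 0.07 and 0.02 for the COL12A1 probes and -0.23 for MMP13. MMP13 also became -0.01 without background correction. With each array left out in turn, 11 members turned sign by the same count. They had ranges from -0.45 to 0.14 for collagen 1, -0.46 to 0.06 for LUM, -0.07 to 0.20 for the first DCN probe, -0.53 to 0.09 for EFEMP1, -0.33 to 0.04 and -0.28 to 0.09 for the fibulin 1 probes, -0.31 to 0.11 for FBLN2, -0.29 to 0.24 for the second COL12A1 probe, -0.06 to 0.16 for MMP13, and -0.27 to 0.79 and -0.14 to 0.89 for the MMP-1 probes.

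The number of members called was 4 under median centring and 1, COL6A3, in the separate channels with their correlation, where 12.6% and 1.1% of all probes were called. It was 0 under the other alternatives fitted with limma, including each array left out. Values averaged per identifier were not tested with limma. The number past 2-fold was 1 or 2 with an array left out, with COL3A1 TC62265 beside TNC without replicate 3, and 1 otherwise. Median centring moved the median of the proteoglycans to 0.63. The medians of the other 3 families moved by less than the SD of their array medians, but changed sign for the proteases and inhibitors, to -0.23 under median centring, -0.01 without background correction and -0.16 to -0.03 with an array left out. With 1 value per identifier the median of the proteases and inhibitors was 0.11. With an array left out the proteoglycans ranged from -0.02 to 0.25 and the basement membrane from 0.00 to 0.16. Without replicates 1, 2 and 3 the fibrillar median was -0.18, -0.15 and -0.63. Among the 37 members with all 3 arrays, the separate channels without the pairing within arrays gave 0 called. They gave 4 at an unadjusted p under 0.05, in place of 7 with the correlation. Over all 14868 probes in these fits there were 1085 in place of 2960. The causes were not tested. The COL3A1 TC64949 probe gave no value in the separate channels or without replicates 1 or 2, and 1 member was not well above background on every array.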
